A study of Mus musculus with 2 samples.

Results

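The miRNA genes with a number of at least 1000 and below 4000 in their symbols, called late-numbered here, were described in the embryonic mouse liver. These were 147 of the 1973 miRNA genes in the deposited count tables. They were chosen by name alone, as every listed gene whose identifier maps in the GENCODE mouse annotation to Mir and a number in that range, with any suffix. Mir3074-1 and the genes in a stretch of chromosome 12 dense with miRNA genes, 9 genes in all, were left out. Both libraries are short RNA libraries from the livers of healthy mouse embryos at day 12.5 of the strain B6NCrl, with males and females pooled and no treatment or engineered allele named in the labels. Replicate 1 was a pool of 120 embryos and replicate 2 a pool of 88. A single donor identifier is shared by both pools in the labels, so an SD over these 2 libraries may in part be technical, and with a single group no conditions were compared.

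MicroRNAs are short RNAs that pair with messenger RNAs, mainly through the seed at bases 2 to 8, and lower their stability or translation. Most are made in steps: the Microprocessor complex of Drosha and Dgcr8 cuts a hairpin out of a longer transcript, and Dicer cuts the hairpin into its 5p and 3p arms, one of which is usually kept. Many hairpins lie in introns of other genes, their hosts. A mirtron is an intron that is itself the hairpin, so that splicing takes the place of the Microprocessor. Numbers are given in the order in which miRNAs are registered, so genes with such high numbers mostly entered the databases in the sequencing era, after the abundant and widely conserved families.

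Of these 147 genes, 17 (11.6%) reached the detection level of 10 CPM in both libraries. CPM here is the count of reads on the sense strand of a gene per 1000000 sense counts on all miRNA genes, and it is not divided by length. Over all listed genes, 15.3% passed. These include 843 genes whose symbols have no Mir number, of which 0.237% passed. The highest of the 17 were Mir1983, Mir1306, Mir1981, Mir1247 and Mir3102, and the other 12 had mean levels of 11.2 to 43.0 CPM. The sequences below are the RefSeq mature sequences (GRCm38.p6) of the 5 highest genes, with the seed in capitals. They are shown because these genes held most of the counts.

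miR-1983: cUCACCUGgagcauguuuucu
miR-1306-5p: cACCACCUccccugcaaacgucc
miR-1306-3p: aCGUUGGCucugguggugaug
miR-1981-5p: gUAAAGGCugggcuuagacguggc
miR-1981-3p: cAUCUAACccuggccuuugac
miR-1247-5p: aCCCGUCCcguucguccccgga
miR-1247-3p: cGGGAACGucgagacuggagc
miR-3102-5p: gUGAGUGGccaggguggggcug
miR-3102-5p.2: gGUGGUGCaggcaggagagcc
miR-3102-3p.2: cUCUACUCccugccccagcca
miR-3102-3p: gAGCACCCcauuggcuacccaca

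RefSeq's table held a mature sequence for 130 of the 143 late-numbered genes that were searched there, and for each of the 17 detected genes. The detected genes have 33 mature sequences of 20 to 25 bases, with 33 different seeds, so they form no seed family among themselves. None of the 33 was identical to the mature sequence of another mouse gene. A seed shared with another mouse miRNA was found for 3 of them (9.09%), against 34 of the 195 mature sequences (17.4%) of the 143 genes searched. The seed UCACCUG of miR-1983 is also that of miR-412-3p, uUCACCUGguccacuagccg, whose gene Mir412 had a mean of 224 ± 14.3 CPM (SD, n = 2). The seed of miR-3102-5p is also that of miR-702-5p, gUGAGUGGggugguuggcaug, whose gene Mir702 had 26.2 ± 2.17 CPM (SD, n = 2). The seed of miR-3058-3p, uUCCUGUCagccgugggugcc, is also that of miR-7681-5p, aUCCUGUCcuugcccucucu, whose gene Mir7681 had 0 counts in both libraries. The tables count whole hairpin genes, so which arm the reads came from was not measured.

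The libraries held 11057424 and 11013976 reads, of which 31.2% and 32.1% were sense counts on miRNA genes (3447858 and 3534816). A count of 0, taken to allow 3 counts, allows up to 0.870 CPM in replicate 1 and 0.849 CPM in replicate 2, for counting error only. Of the reads, 28.8% and 31.1% aligned to several places and were counted for no gene. The liver label was checked with known miRNAs. The hepatocyte miRNA gene Mir122 had 54020 ± 9747 CPM (SD, n = 2), the endothelial Mir126a 68490 ± 461, the erythroid Mir451a 22459 ± 14195 and the myeloid Mir223 6256 ± 951. Of the pancreatic genes, Mir375 had 2194 ± 153 CPM, Mir217 9.75 ± 0.982 and Mir216a 2.73 ± 1.47, and the muscle Mir206 had 209 ± 113. The neuronal Mir124a-1, Mir124a-2 and Mir124a-3 and the muscle Mir1a-1 and Mir133a-1 were at 0, but each shares a run of 20 bases with other gene copies, so reads from them can be lost to the class aligned to several places.

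The late-numbered genes held a small share of the miRNA counts. They took 0.468% of the sense counts in replicate 1 and 0.390% in replicate 2, a mean of 0.429% ± 0.0554 (SD, n = 2). The genes numbered below 1000, with the let-7 genes, took 98.9% ± 0.0939 (SD, n = 2), and those numbered 4000 and above 0.126% ± 0.00806. The 9 genes left out, whose numbers also lie in the range, took 0.532% ± 0.0220 (SD, n = 2), and 6 of them (66.7%) were detected. By detected genes the late numbers lay between the earlier and the later ones: 17 of 147 (11.6%) passed, against 259 of 474 (54.6%) of those numbered below 1000 and 17 of 421 (4.04%) of those numbered 4000 and above. Within the range, 10 of 74 genes (13.5%) with numbers below 2000 were detected, 0 of the next 4 by number, and 7 of 69 (10.1%) above those. The median level of the detected genes was 32.3 CPM, against 441 CPM for the detected genes numbered below 1000. These are descriptions of the annotated sets, given with no test.

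**Figure D1:**
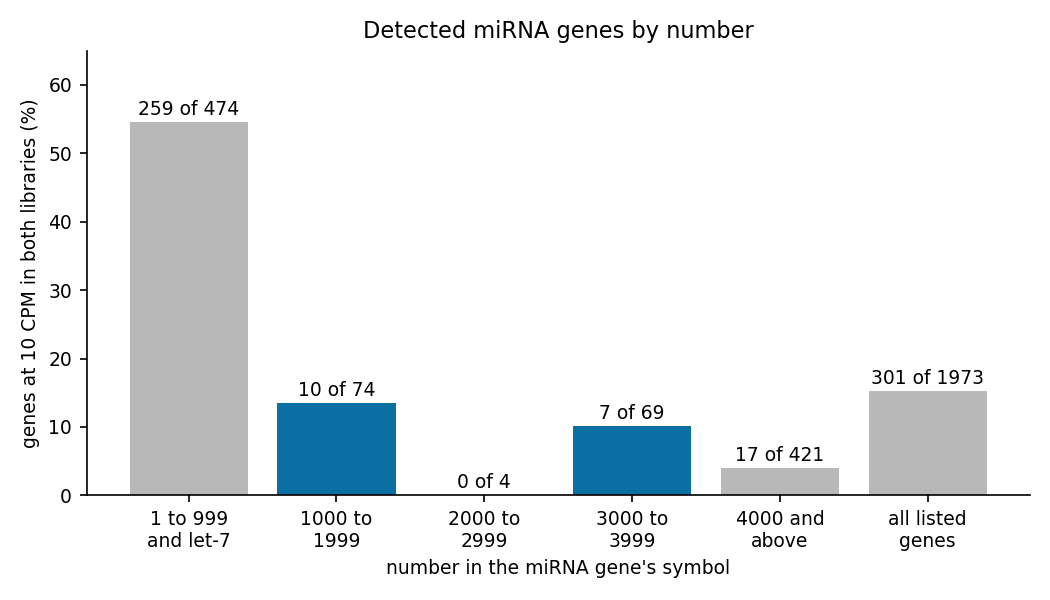
Share of listed miRNA genes that reached 10 CPM in both libraries (y axis, percent), by the number in the gene's symbol (x axis), with the detected and listed genes given at each bar. The bar for numbers below 1000 stands at 54.6%, the 3 bars of the late-numbered genes at 13.5%, 0% and 10.1%, and that for 4000 and above at 4.04%. The 9 genes left out by the rule are in none of these bars. They are part of the last bar, that of all listed genes, which stands at 15.3%.

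Mir1983 alone held most of the counts of the group. It had 11642 sense counts in replicate 1 and 9708 in replicate 2, which are 3377 and 2746 CPM and a mean of 3061 ± 446 CPM (SD, n = 2). It was therefore 72.1% and 70.4% of all sense counts on the late-numbered genes, 71.3% ± 1.18 (SD, n = 2), and it was 9.46 times as high as the next gene. It ranked 63 among all listed miRNA genes, and the other 16 detected genes lay between 11.2 and 324 CPM. Without Mir1983 the share of the group was 0.123% ± 0.0109 (SD, n = 2).

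The place of Mir1983 is also that of a tRNA gene. Its hairpin is at chr13:21896918-21897049 on the minus strand (mm10), where GENCODE has no host gene, and RefSeq has the tRNA gene n-TItat14 at chr13:21896938-21897031 on the same strand. Counted from 1 at the 5′ end of the hairpin, the tRNA gene takes positions 19 to 112 and the mature miRNA positions 100 to 120. Of the 21 bases of miR-1983, 13 lie inside the tRNA gene and 8 lie past its 3′ end. The hairpin from RefSeq follows, with the mature miRNA in capitals, to show where it lies at the 3′ side.

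Mir1983 hairpin: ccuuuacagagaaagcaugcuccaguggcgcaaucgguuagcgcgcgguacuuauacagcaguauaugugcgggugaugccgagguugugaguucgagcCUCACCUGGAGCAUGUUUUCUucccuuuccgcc

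Transfer RNAs carry amino acids to the ribosome, and their precursors have a 3′ trailer that is cut off during maturation. The counts per gene do not show where in the hairpin the reads lay or how long they were, so whether they came from the mature miRNA, the tRNA or its trailer was not tested. Mir1983 shares no run of 20 bases with another annotated miRNA gene. Sharing with other copies of the tRNA gene was not tested.

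**Figure D2:**
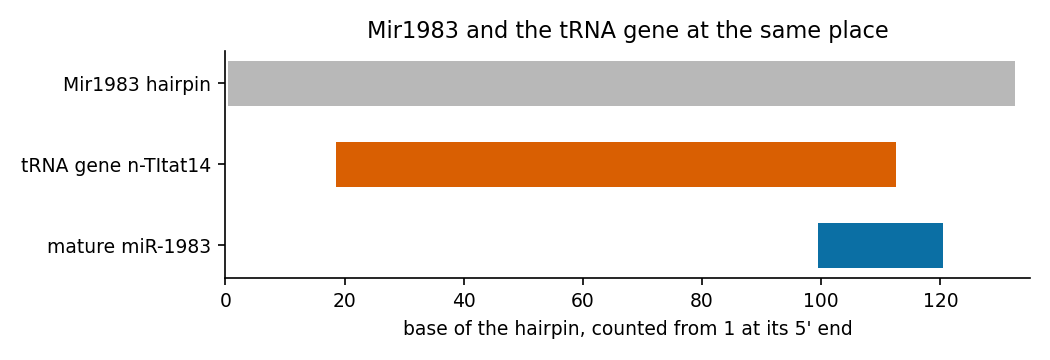
The Mir1983 hairpin, the tRNA gene n-TItat14 and mature miR-1983 drawn to scale along the hairpin (x axis, base counted from 1 at the 5′ end of the 132-base hairpin). The mature miRNA, at positions 100 to 120, begins inside the tRNA gene and ends 8 bases past its end at position 112.

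Mir1306 lies in a coding exon of Dgcr8, the gene of the Microprocessor's RNA-binding subunit, and was the second highest gene. It had 1271 sense counts in replicate 1 and 984 in replicate 2, or 369 and 278 CPM, with a mean of 324 ± 63.8 CPM (SD, n = 2). Its hairpin is at chr16:18284239-18284317 on the minus strand. Dgcr8 holds a further hairpin, listed in the tables as Gm24572 and given in RefSeq as Mir3618, at chr16:18284550-18284637, 233 bases away on the same strand. That hairpin had 8 and 17 sense counts, a mean of 3.56 ± 1.76 CPM (SD, n = 2). Of the pair of Dgcr8 hairpins, therefore, Mir1306 was the one well above 10 CPM in both libraries. The Microprocessor is known to cut the Dgcr8 messenger RNA at a hairpin, which lowers its own supply. The level of the Dgcr8 messenger RNA was not measured here.

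In 5 genes of the range the hairpin is a whole intron, which is the form of a mirtron. They are shown from RefSeq, or for Mir3102 from the transcript sequences of GENCODE M21 and so with T, with the first and last 2 bases of the intron in capitals.

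Mir1981 in Marc2: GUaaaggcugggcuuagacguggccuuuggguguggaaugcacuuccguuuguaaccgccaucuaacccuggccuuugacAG
Mir3102 in Arhgef17: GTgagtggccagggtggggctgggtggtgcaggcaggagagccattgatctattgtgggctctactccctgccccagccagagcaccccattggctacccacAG
Mir1982 in Oaz1: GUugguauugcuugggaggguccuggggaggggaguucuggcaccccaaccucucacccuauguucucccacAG
Mir1224 in Vwa5b2: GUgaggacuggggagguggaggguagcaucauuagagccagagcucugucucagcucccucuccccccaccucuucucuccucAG
Mir3547 in Baiap3: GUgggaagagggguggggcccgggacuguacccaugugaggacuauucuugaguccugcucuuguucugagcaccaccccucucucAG

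Mir1981 and Mir3102 were detected, and the other 3 were low. Mir1981, an intron of Marc2, which codes for a mitochondrial amidoxime-reducing enzyme, had 743 and 674 sense counts, or 215 and 191 CPM, with a mean of 203 ± 17.6 CPM (SD, n = 2). It lies at chr1:184822407-184822488 on the minus strand. Mir3102, an intron of Arhgef17, which codes for a guanine nucleotide exchange factor, had 243 and 244 sense counts, or 70.5 and 69.0 CPM, a mean of 69.8 ± 1.03 CPM (SD, n = 2). It lies at chr7:100882306-100882409 on the minus strand and is the only gene of the 147 with 4 mature sequences in RefSeq's table, 2 from each arm. Neither is among the genes that passed the test between the libraries given further on.

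Mir1982, in Oaz1, the gene of ornithine decarboxylase antizyme, had 9 and 10 sense counts, 2.72 ± 0.155 CPM (SD, n = 2). Mir1224, in Vwa5b2, had 2 and 6 counts, 1.14 ± 0.790 CPM. Mir3547, in Baiap3, had 2 and 4 counts, 0.856 ± 0.390 CPM. Baiap3 codes for a protein of vesicle trafficking. The last pair lay close to what a count of 0 allows.

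A further 11 genes have only their 3′ end within 2 bases of the end of an intron, with intron sequence left at the 5′ side. None of these 11 was detected in both libraries, 4 had at least 10 counts and 2, Mir1963 and Mir3104, had 0. The highest of them was Mir3064 in Ddx5, an RNA helicase gene, with 39 and 29 counts and a mean of 9.76 ± 2.20 CPM (SD, n = 2). The other 70 of the 86 genes placed in an intron of any host transcript lie away from both ends of the intron. Of these 70, 9 (12.9%) were detected, in introns of 1062 to 169340 bases.

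Mir1247 was the detected gene with a long noncoding RNA as its host. It lies in an exon of Dio3os, transcribed beside the imprinted gene Dio3, at chr12:110278048-110278129 on the minus strand. It had 530 sense counts in replicate 1 and 433 in replicate 2, or 154 and 122 CPM, and a mean of 138 ± 22.1 CPM (SD, n = 2). Of the 7 genes of the range in exons of long noncoding RNAs, the other 6 had 0 counts, so Mir1247 stood alone in that class. The 3 genes in introns of long noncoding RNAs were not detected.

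**Figure D3:**
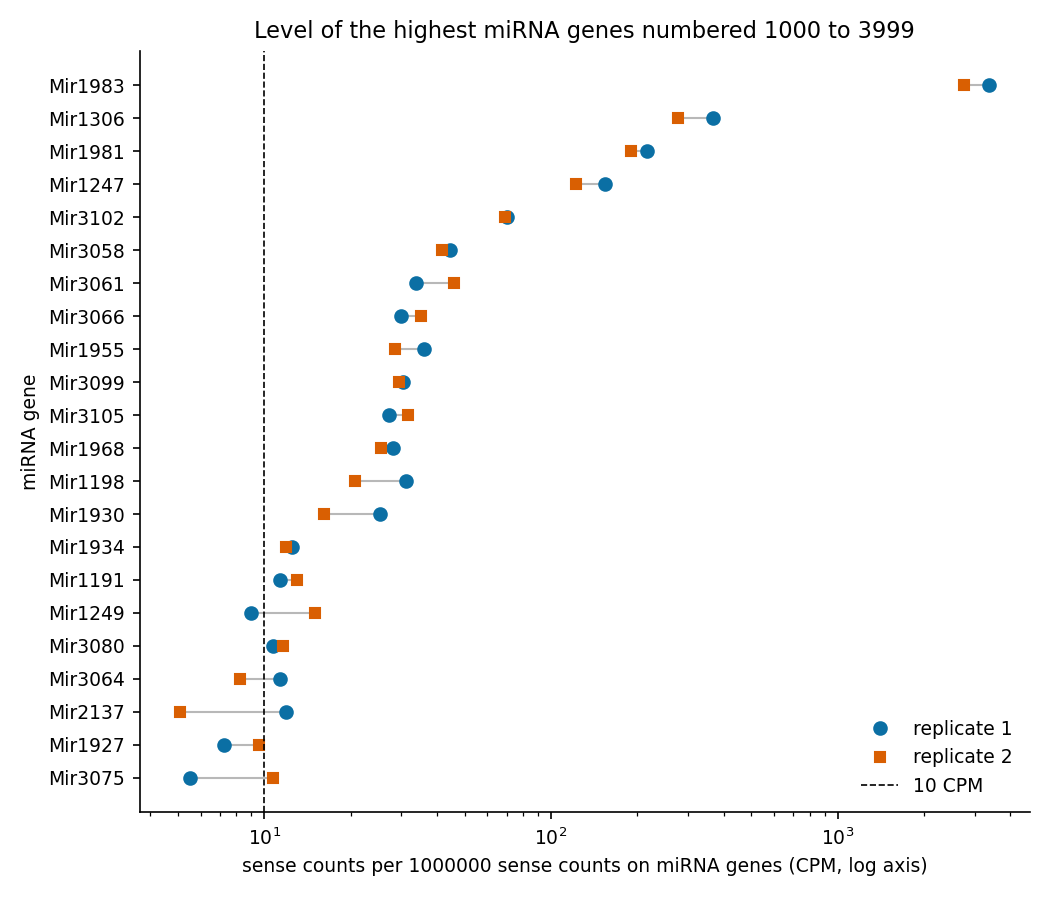
CPM (x axis, log scale) in replicates 1 and 2 for the detected late-numbered genes and the 5 highest that missed 10 CPM in a library (y axis, 1 gene a row). Mir1983 stands apart at 3377 and 2746 CPM, Mir1306, Mir1981 and Mir1247 lie above 100 CPM in both libraries, and the points of 1 gene lie close together beside the distances between the highest genes.

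The other 9 detected genes in introns of protein coding genes had 11.2 to 43.0 CPM. Mir3058, in an intron of Nudt4, which codes for an enzyme that cleaves inositol pyrophosphates, had 153 and 147 counts and a mean of 43.0 ± 1.97 CPM (SD, n = 2) at chr10:95559231-95559321, minus strand. Mir3066, in Nol10, which codes for a nucleolar protein, had 103 and 124 counts and 32.5 ± 3.68 CPM at chr12:17355392-17355474, plus strand. Mir1955, in Phf21a, which codes for a subunit of a histone demethylase complex, had 124 and 101 counts and 32.3 ± 5.23 CPM at chr2:92191977-92192074, plus strand. Mir3058 was above the other two in each library, while Mir3066 and Mir1955 differed by less than the spread between libraries.

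Mir3099 lies in an intron of Usp29, a paternally expressed ubiquitin protease gene of the Peg3 region, at chr7:6803587-6803670 on the plus strand. It had 105 and 104 counts, 29.9 ± 0.730 CPM (SD, n = 2), and its intron, at 169340 bases, was the longest among those of the detected genes. Mir3105, in Shank2, the gene of a postsynaptic scaffold protein, had 94 and 112 counts and 29.5 ± 3.13 CPM at chr7:144009254-144009338, plus strand. Mir1968, in Grtp1, had 97 and 90 counts and 26.8 ± 1.89 CPM at chr8:13189031-13189098, minus strand, in the shortest of these introns, at 1062 bases. The host Shank2 is best known from neurons and Usp29 from brain, but host transcripts were not measured in these libraries.

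Mir1198, in Gripap1, which codes for an endosomal protein, had 108 and 73 counts, or 31.3 and 20.7 CPM, at chrX:7807101-7807221 on the plus strand. Mir1930, in Ube2g2, a ubiquitin-conjugating enzyme gene of endoplasmic reticulum quality control, had 87 and 57 counts, or 25.2 and 16.1 CPM, at chr10:77641224-77641307 on the plus strand. Both were lower in replicate 2. Mir3080, in Tcf20, a transcriptional coregulator gene, had 37 and 41 counts and 11.2 ± 0.613 CPM (SD, n = 2) at chr15:82959218-82959296, minus strand, and was the lowest of the 17.

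The 2 detected genes in untranslated parts of exons were Mir3061 and Mir1191. Mir3061, in Ppp2ca, the gene of the catalytic subunit of protein phosphatase 2A, had 117 and 162 counts, or 33.9 and 45.8 CPM, a mean of 39.9 ± 8.41 CPM (SD, n = 2). It lies at chr11:52126746-52126836 on the plus strand, and 9430098F02Rik and Gm26551 are annotated there on the other strand. Mir1191, in BC024978, had 39 and 46 counts and 12.2 ± 1.20 CPM at chr7:27205536-27205655, plus strand. Mir1934, at chr11:69663043-69663125 on the plus strand, has no gene in GENCODE around it, and had 43 and 42 counts, 12.2 ± 0.417 CPM. The counts of a hairpin in an exon can hold fragments of the host's messenger RNA, and these were not told apart from miRNA reads. With the tRNA gene place and the hairpins placed in an exon of their host left out, 12 of the 17 detected genes remained. These 12 include Mir3102 and Mir1930, each of which lies in an intron that 1 retained-intron transcript of its host keeps as exon.

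By host, 109 of the 147 genes lie in an exon or intron on the strand of a host, and 15 of them (13.8%) were detected. Of the 72 in introns of protein coding genes, 11 (15.3%) were detected, and of the 27 in their exons, 3 (11.1%). A hairpin that overlaps an exon of any transcript by any length counts here as in an exon, unless only retained-intron transcripts have that exon. Some genes counted above as placed in an intron, such as Mir3064, Mir3076 and Mir3104 at an intron end, are therefore among these 27. Of the 26 genes with no GENCODE gene at their place, 2 (7.69%) were detected, Mir1983 and Mir1934. None of the 12 genes with a gene on the opposite strand only was detected. These shares rest on few genes and were not tested. The number of mature sequences in RefSeq was counted for the 143 genes outside chromosome 18, since the 4 genes there were not searched. Of these, 0 of 13 genes with none were detected, 3 of 67 (4.48%) with 1, 13 of 62 (21%) with 2, and the single gene with 4.

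**Figure D4:**
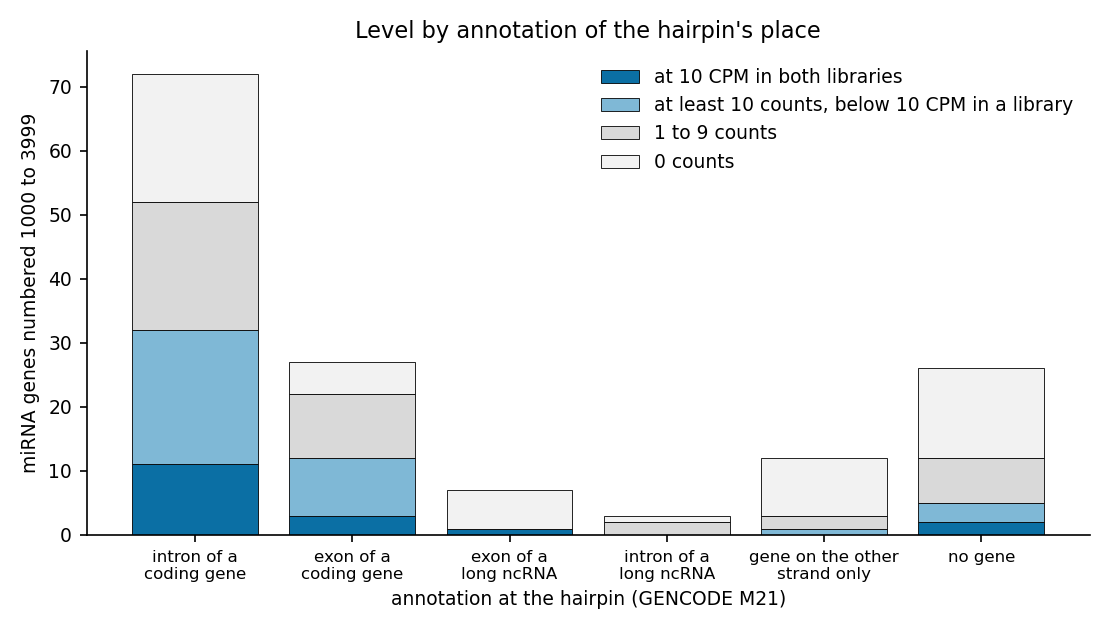
Number of late-numbered genes (y axis) by the annotation at the hairpin (x axis), split into detected, at least 10 counts but not detected, 1 to 9 counts, and 0 counts. Introns of protein coding genes hold 72 genes and 11 of the 17 detected ones, and 6 of the 7 genes in exons of long noncoding RNAs had 0 counts. Any overlap with an exon, other than one of retained-intron transcripts only, places a hairpin with the exons.

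The 5 highest genes that missed 10 CPM in at least 1 library had mean levels from 8.13 CPM upward. Mir1249, in 5031439G07Rik, had 31 and 53 counts, or 8.99 and 15.0 CPM, and its mean was above that of Mir3080 just inside the threshold. Mir3064 in Ddx5 had 11.3 and 8.20 CPM. Mir2137 in Zfp185 had 41 and 18 counts, or 11.9 and 5.09 CPM. Mir1927 in Rabgap1l, which codes for an activating protein of Rab GTPases, had 7.25 and 9.62 CPM. Mir3075 in Zmiz1, a transcriptional coactivator gene, had 19 and 38 counts, or 5.51 and 10.8 CPM. Of these 5, all but Mir1927 reached 10 CPM in 1 library and not in the other, so their side of the threshold was within the difference between libraries.

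Of the other genes, 34 had at least 10 counts over both libraries without being detected, 41 had 1 to 9 counts and 55 had 0. The share at 0 was 37.4%, between 22.8% of the genes numbered below 1000 and 44.9% of those numbered 4000 and above. Over all listed genes it was 61.8%, which includes the 843 genes with no Mir number, 93.8% of them at 0. Of the 55 genes at 0, 15 share a run of 20 bases with another miRNA gene, among them Mir3473a, Mir3473b, Mir3470a and Mir1946a, and reads from such genes can fall among those aligned to several places. Such a run was found in 21 of the 147 genes (14.3%), in 0 of the 17 detected genes and in 47.1% of all listed genes. It was found in 38.2% of the genes numbered below 1000, 4.99% of those numbered 4000 and above and 83.3% of those with no Mir number. For the other 40 genes at 0, levels up to the 0.870 and 0.849 CPM that a count of 0 allows were not detectable. This limit holds only for reads that align to a single place. Runs shared with places outside annotated miRNA genes were not tested.

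Htr2c, the gene of a serotonin receptor known from the brain, carries 3 genes of the range in its introns, and these were at or near 0. Mir1298 had 10 counts in replicate 1 and 3 in replicate 2, a mean of 1.87 ± 1.45 CPM (SD, n = 2). Mir1264 and Mir1912 had 0 in both libraries. Only 5 genes of the range have another listed miRNA gene within 10 kb on the same strand, and 1 of them, Mir1306, was detected. Mir1264 and Mir1912 are a further 2, with Mir764 of the same cluster also at 0, and Mir3078 lies 444 bases from Mir124a-1, both with 0 counts. Mir3064 lies 412 bases from Gm25994, which had 0 counts. Among the listed miRNA genes within 10 kb on the same strand, the detected late-numbered genes thus lie singly, apart from the pair in Dgcr8. The 22 genes of the range that GENCODE M21 has but the count tables do not list were not searched as neighbours.

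Reads on the opposite strand were rare at these genes. Only 6 of the 147 had any, 9 counts in all, beside 16149 and 13785 sense counts in replicates 1 and 2. Over all listed genes, the opposite strand held 374792 counts in replicate 1 and 363712 in replicate 2. The sense strand of all listed genes held 3447858 and 3534816. The number of all listed genes with an opposite-strand count is not given here. Mir3086 had 1 in each library, Mir1893 and Mir1191 had 2 each in replicate 2, and Mir3569, Mir1956 and Mir1901 had 1. Of the 17 detected genes, 16 had 0 opposite-strand counts, the exception being Mir1191 with 2. The counts of the detected genes therefore came almost wholly from the annotated strand.

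The 2 libraries were compared gene by gene with a two-sided exact binomial test on sense counts, with TMM-scaled library sizes and Benjamini-Hochberg adjustment over the 464 listed genes with at least 10 counts. It covers counting error only and compares these libraries, not conditions. Over all genes tested, 22% were higher in replicate 2 and 18.3% lower. Of the 51 late-numbered genes that were tested, 4 were higher and 6 lower, a smaller share than of all genes in both directions. These genes also had fewer counts than the genes numbered below 1000, and with fewer counts the test passes only larger differences. The median log2 ratio of replicate 2 to replicate 1 was -0.04 for these genes and 0.02 for all genes tested.

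The 6 lower in replicate 2 included the 2 highest genes. The log2 ratio of Mir1983 was -0.24 (95% interval -0.28 to -0.20, adjusted p = 9.86e-34 in the exact binomial test), and that of Mir1306 was -0.35 (-0.47 to -0.23, adjusted p = 4.94e-08). Mir1247 was lower by a log2 ratio of -0.27 (-0.46 to -0.09, adjusted p = 0.0108), Mir1198 by -0.54 (adjusted p = 0.0362), Mir1930 by -0.59 (adjusted p = 0.0402) and Mir2137 by -1.15 (adjusted p = 0.011). The 4 higher were Mir3061 with a log2 ratio of 0.49 (0.14 to 0.84, adjusted p = 0.0163), Mir1249 with 0.78 (adjusted p = 0.0408), Mir3075 with 1.00 (adjusted p = 0.0306) and Mir1929, in an intron of the autophagy gene Atg5, with 1.40 (adjusted p = 0.0458) from 7 and 19 counts. With a test that allows for variation between replicates, edgeR's negative binomial exact test with an assumed coefficient of variation of 0.1, none of the 51 passed, the smallest adjusted p was 0.209, and 3 had an unadjusted p under 0.05. Of the 17 detected genes, 15 differed by less than 1.5-fold in CPM between the libraries, and the largest difference was 1.56-fold, at Mir1930. This agreement is in part set by the rule, since detection asks for 10 CPM in both libraries. Genes near that level that differ more are left out, such as Mir2137 (11.9 and 5.09 CPM) and Mir3075 (5.51 and 10.8 CPM).

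**Figure D5:**
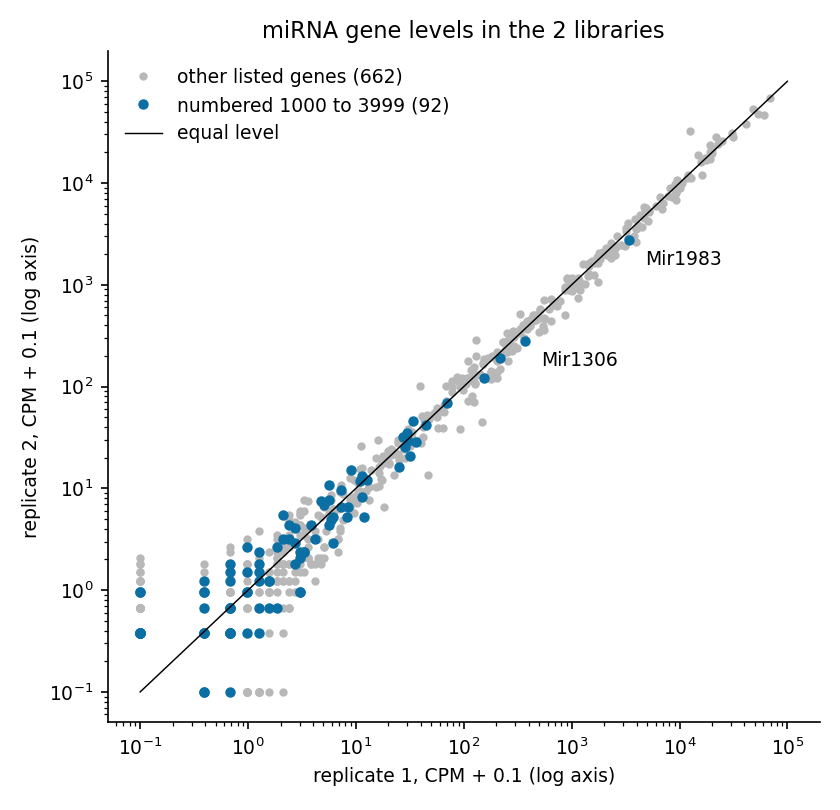
CPM + 0.1 in replicate 1 (x axis, log scale) and replicate 2 (y axis, log scale) for the listed miRNA genes with a sense count in either library. The late-numbered genes are marked, and genes at 0 in both libraries are not drawn. The detected genes of the range lie near the diagonal, with the largest difference 1.56-fold, and Mir1983 is the highest of them at 3377 and 2746 CPM. Detection asks for 10 CPM in both libraries, which leaves out genes near that level that differ more.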

How the data were processed

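For each library the authors deposited raw counts per miRNA gene, for both strands together, the sense strand and the opposite strand. Per the deposited file lists, the build was mm10 and the annotation GENCODE M4; the aligner, counter and trimming were not given in the sources used here. Left out of library sizes were the 4 lines of reads in no gene (reads unmapped, aligned to several places, outside listed genes or ambiguous). Sense counts were used and scaled to CPM. Names, coordinates and hosts came from GENCODE M21, where 1894 of 1973 identifiers were found, and mature and hairpin sequences from RefSeq (GRCm38.p6), except the Mir3102 hairpin, from the transcript sequences of GENCODE M21. Libraries were compared with R 4.3.3 and edgeR 4.0.16 (TMM). DESeq2 1.42.0 gave alternative size factors. edgeR's quasi-likelihood test could not be fitted with 1 group of 2. The binomial test was tried on simulated counts with counting error only and known changes in some genes. The share of unmapped reads was 29.4% and 25.8%, and that of reads outside listed genes 10.6% and 11.0%.

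The genes, the lists and the rule for named genes were chosen with earlier results of these data known. The rule names every gene detected, the 5 highest that miss the threshold, the 5 with the most opposite-strand counts (6 are named because the last are tied), the largest differences between libraries, and the lists of Dgcr8, Htr2c and mirtron hairpins. Other genes are named as members of a small class. Alternatives changed strand, denominator, threshold, replicate, scaling, filter and test. Leaving out Mir1983, and leaving out exon and small RNA overlaps, were chosen after seeing the data.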

Additional observations from a re-analysis of the deposited data

Results flagged for a closer look

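Reads on the opposite strand of Mir486, a gene outside the number range, lie where Mir3107 is annotated at chr8:23142573-23142662 on the minus strand. Mir3107 has a number in the range, but its own sense counts were not analysed here. The opposite strand of Mir486 held 363 counts in replicate 1 and 301 in replicate 2, against 4151 and 3153 on its sense strand, so 8.04% and 8.71% of the counts at this place were on the strand of Mir3107. That is a mean of 95.2 ± 14.2 per 1000000 sense counts (SD, n = 2), a value between those of Mir1247 and Mir3102 among the detected genes. The check for shared runs left out genes at the same place, so sequence shared by Mir486 and Mir3107 was not tested. Reads that fit both strands may lie on either or be missing here, so this value is not a level of Mir3107. Of the other 3 unlisted genes of the range that lie opposite a listed gene, Mir3065, opposite Mir338, had 1 count in each library, Mir3074-2, opposite Mir24-2, had 0 and 2, and Mir3073b had 0 in both. Each of these counts was taken from the opposite-strand column, which no comparison of the report uses for them.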

How the results depend on the processing

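The count of 17 detected genes depended most on the threshold. It was 52 at 1 CPM, 4 at 100 CPM, 51 with at least 10 counts over both libraries and 1 in each, and 7 with all reads as the denominator. It was 16 with both strands together, 17 without genes that share a run of 20 bases, 12 without the hairpins placed in exons or over small RNAs (exons of retained-intron transcripts not counted), and 19 when either replicate was left out. The share of 0.429% was 0.136% of all reads, 0.123% without Mir1983, and 0.390% to 0.468% when 1 replicate was left out. Of the genes that differed between libraries, the 4 higher in replicate 2 became 2 with DESeq2's size factors, 2 with total counts, 2 with no filter, and 0 with edgeR's negative binomial exact test at a coefficient of 0.1 or at the estimated 0.162 (3 and 1 of the 51 genes had an unadjusted p under 0.05). The 6 lower became 0 in both of those tests. The coefficient of 0.162 was estimated from these same 2 libraries taken as 1 group. The difference between the libraries is therefore part of that estimate, and few genes can pass against it. Mir1249 and Mir1929 lost their calls under DESeq2's size factors (adjusted p = 0.0557 for Mir1249), total counts (adjusted p = 0.0722 for Mir1249) and no filter. Mir1198 and Mir1930 lost theirs under no filter. Log2 ratios near 0 that passed no test changed sign: that of Mir3102, 0.0247, was -0.0300 with total counts, and that of Mir3099, 0.00503, was -0.0137 with DESeq2's size factors and -0.0497 with total counts. The median over the late-numbered genes tested, -0.04, was 0.03 with no filter, and that over all genes tested, 0.02, was -0.04 with total counts. No called log2 ratio changed sign under the alternatives run. Beyond the values above, the cause was not tested. With both strands together the levels of 9 of 31 named genes moved by more than their SD. Of these, Mir1893 rose from 0.428 to 0.644 CPM and Mir1901 from 0 to 0.128 CPM, with their opposite-strand counts included. The others fell, where the denominator grows. No paired analysis was possible because the labels give a single group. Genes of fewer than 10 counts were tested only in the alternative with no filter, and there the depth leaves wide counting error.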
